A study of Homo sapiens with 5 samples.

Results

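The WNT and β-catenin pathway was examined through 35 genes, taken by symbol as its core components and as its known target genes in colorectal cells, out of 20026 genes with values. HCT116 is a human colorectal carcinoma line that carries a stabilizing mutation of CTNNB1, the gene of β-catenin. Polyadenylated RNA had been sequenced from 2 control samples transduced with the pLKO.1 vector (pLKO_1 and pLKO_2) and from 3 samples in which ELK4, an ETS transcription factor, was knocked down (shELK4_1, shELK4_2 and shELK4_3). Each knockdown sample carried its own short hairpin RNA, so a hairpin and its single sample cannot be told apart, and neither can the loss of ELK4 and any other difference between a hairpin and the control vector. Levels are given as FPKM, a read abundance scaled to the length of the transcript and to the mapped reads of the sample, which allows levels of different genes to be compared. The depth of each sample is unknown from these values, so precision rests on the spread between samples, which may be technical where nothing states that cultures were separate.

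WNT proteins are secreted ligands that bind Frizzled receptors and the co-receptors LRP5 and LRP6, and Dishevelled proteins pass the signal inward. Without a signal, a destruction complex built on APC and Axin phosphorylates β-catenin and marks it for degradation; with a signal, or with a mutation that removes the phosphorylation site, β-catenin enters the nucleus and activates target genes together with TCF and LEF factors. The pathway maintains the stem cells of the intestinal crypt and is active in most colorectal cancers, and many of its targets are themselves inhibitors that dampen it.

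The hairpins act through a guide strand, whose bases 2 to 8, the seed, can also pair with other transcripts. The 3 guides are shown because several WNT genes differed between hairpins, with the seed in capitals, 5′ to 3′.
shELK4_1 guide: aATGCAATcatgttgaatgtc
shELK4_2 guide: aAATTTGAtgacagatggtgt
shELK4_3 guide: aATAGTCTattatcagcattg
Their targets lie on the minus strand of ELK4 in GRCh38, at chr1:205616482-205616502 for shELK4_1 and chr1:205616437-205616457 for shELK4_3, both in the 3′ UTR within exon 5, and at chr1:205620473-205620493 for shELK4_2, in the coding sequence of exon 3. Among the WNT genes, a match to the seed in the 3′ UTR was found for 3 of 30 with shELK4_1 (EPHB2, CD44 and SOX9), against 12.7% of 10692 tested genes with a 3′ UTR. For shELK4_2 it was again 3 of 30 (TCF7, NKD1 and LRP6), against 17.3%, and for shELK4_3 it was 4 of 30 (NKD1, ZNRF3, FZD7 and LRP6), against 8.4%. A match is a description of the letters and not evidence of pairing.

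ELK4 itself had 8.62 and 7.60 FPKM in pLKO_1 and pLKO_2, and 3.14, 2.82 and 2.44 FPKM in shELK4_1, shELK4_2 and shELK4_3. All 3 knockdown samples lay far below both controls, as labelled. The log2 difference, on log2(FPKM + 1) as for every difference here, was −1.26 (SE 0.12, adjusted p = 0.029 from limma). It did not pass an adjusted p of 0.05 when either control, shELK4_1 or shELK4_3 was left out, where it was between −1.34 and −1.18 (adjusted p from 0.0752 to 0.483 with limma).

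The labelled cell type was checked against 7 genes of colonic epithelium. The keratin KRT8, the most abundant of them, had 1070 FPKM in each control, and EPCAM, an epithelial adhesion molecule, had 156 and 157 FPKM. CDX2, an intestinal transcription factor, had 4.12 and 5.09 FPKM, while VIL1, the gene of the brush border protein villin, was at or near 0 in all 5 samples. Of 7 genes of immune, fibroblast and endothelial cells, 6 stayed below 1 FPKM in every sample, with PTPRC, CD3E, PECAM1 and VWF at or near 0, and COL1A1 was the most abundant at 3.30 and 3.10 FPKM in the controls. The sum over these 7 genes was 3.38 and 3.15 FPKM in the controls, against 3.68, 3.66 and 4.30 FPKM in shELK4_1, shELK4_2 and shELK4_3. The sum over the epithelial genes was lower in the knockdown samples, at 1990, 1480 and 1590 FPKM against 2620 and 2660 FPKM in the controls. None of the 6 epithelial genes that were tested passed an adjusted p of 0.05 with limma, 4 had an unadjusted p under 0.05 with a lower mean (KRT8, KRT18, KRT19 and CDX2), against 8.14% of all tested genes, and the part of these genes in the WNT results was not tested.

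At baseline, DKK1 had the highest level of the 35 genes and CTNNB1 the next, while the crypt stem cell genes LGR5 and ASCL2 were at or near 0. The stem and progenitor targets did not share a level, since CD44, SOX4 and SOX9 were among the most abundant of the 35. DKK1, a secreted inhibitor that binds the LRP co-receptors, had 168 and 182 FPKM in pLKO_1 and pLKO_2. CTNNB1 had 90.5 and 88.4 FPKM. Then came DVL1 with a mean of 56.3 ± 3.97 FPKM (SD, n = 2), CD44 with 34.4 ± 1.05 FPKM (SD, n = 2) and SOX4 with 25.3 ± 1.85 FPKM (SD, n = 2), and the order of these 5 genes was the same in both controls. SOX9, DVL2, TCF7L2 and DVL3 followed at 17.2 to 19.5 FPKM, where DVL2, TCF7L2 and DVL3 overlapped between the controls. Below them were GSK3B, BCL9L, LRP5, LRP6, AXIN2, RNF43, PROM1, LGR4, FZD7, AXIN1, APC, TCF7L1, BCL9, FZD5, ZNRF3, NOTUM, FZD2, EPHB2, TCF7, NKD1 and EPHB3, with means from 15.7 down to 0.98 FPKM.

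The remaining 5 of the 35 genes did not reach an FPKM of 1 in at least 2 samples and were not tested, which left 30. LGR5, the R-spondin receptor that marks crypt base stem cells, had 0.0377 FPKM in pLKO_1 and was listed at 0 in pLKO_2. ASCL2, a transcription factor of the same stem cells, was listed at 0 in all 5 samples. LEF1, a partner of β-catenin on DNA, did not exceed 0.0122 FPKM in any sample. TNFRSF19, a receptor that is also a WNT target, lay between 0.27 and 0.421 FPKM, and SP5, a zinc finger repressor induced by WNT, had 0.546 and 0.653 FPKM in the controls, 0.586 FPKM in shELK4_1, 0.464 FPKM in shELK4_2 and 1.20 FPKM in shELK4_3.

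**Figure D1:**
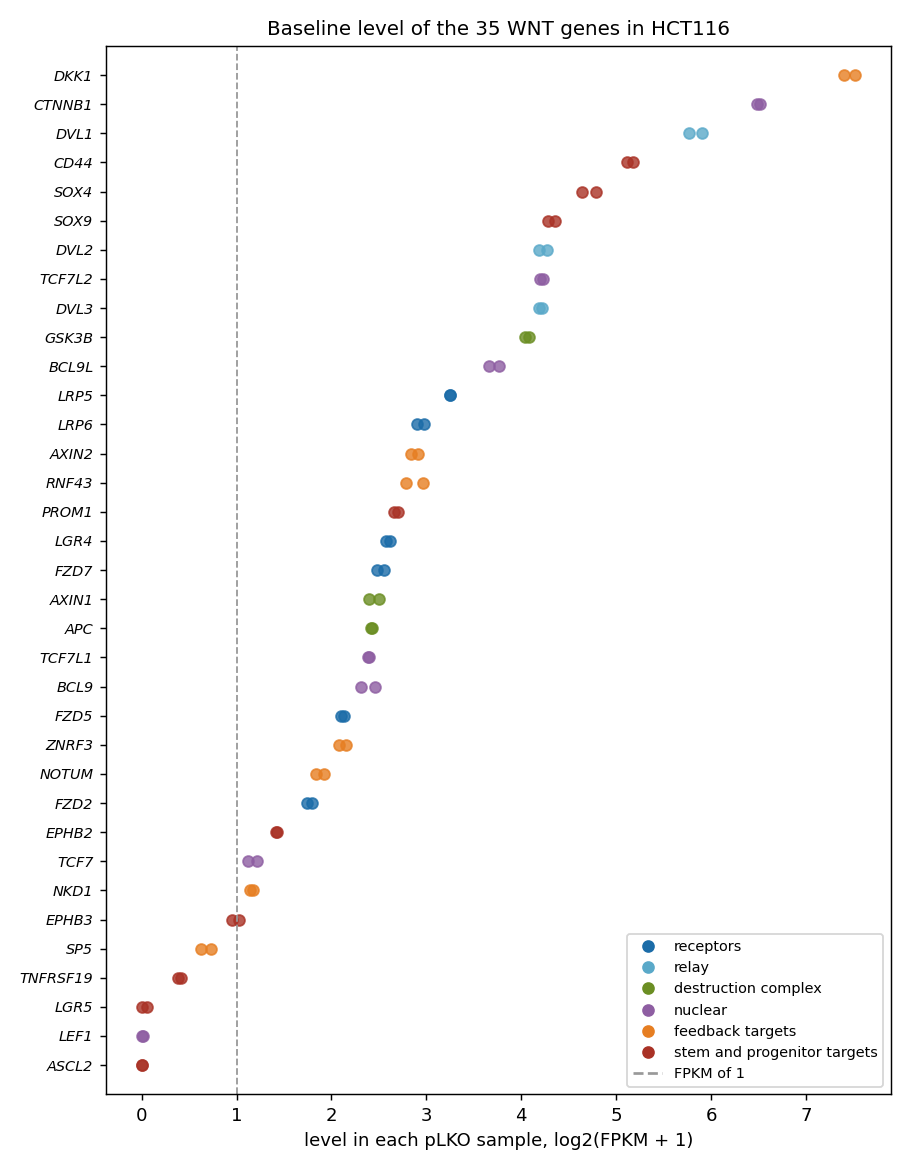
Level of each of the 35 WNT genes in the 2 pLKO samples, as log2(FPKM + 1), 1 point a sample, ordered by mean and coloured by role, with an FPKM of 1 as the dashed line. DKK1 and CTNNB1 lie at the top, and LGR5, LEF1 and ASCL2 lie at or near 0.

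The promoters of 24 of the 35 genes were found in the RefSeq table for GRCh38.p14, each from 250 bases before to 50 bases after the gene's start. The TCF and LEF sequence, searched as CTTTGAT or CTTTGAA on both strands, was present in 2 of the 24, DKK1 and SP5, against 3.5% of 8805 promoters of tested genes. DKK1 and SP5 thus shared this sequence and lay near opposite ends of the order of levels. The ETS sequence CCGGAAG was present in 3 of the 24 (AXIN1, DVL3 and TCF7), against 21.1%, and the GC box CCCCGCCCC in 9 of the 24, against 29.6%. The 24 include LEF1, SP5 and TNFRSF19, which were not tested, while the shares cover promoters of tested genes only, so the sets are unlike. Of DKK1 and SP5, only DKK1 was tested. No match says only that these letters are not in the window. The windows of DKK1 and SP5 are shown for the TCF and LEF sequences, and that of TCF7L2 as an example with GC boxes, which had 2.
DKK1 (plus strand, chr10:52314031-52314330): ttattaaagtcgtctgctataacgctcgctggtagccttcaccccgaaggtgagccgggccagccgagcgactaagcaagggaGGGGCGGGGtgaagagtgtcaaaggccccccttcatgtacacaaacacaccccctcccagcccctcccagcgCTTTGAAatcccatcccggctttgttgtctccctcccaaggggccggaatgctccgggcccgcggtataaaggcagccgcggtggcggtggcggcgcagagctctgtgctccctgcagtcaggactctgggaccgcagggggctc
SP5 (plus strand, chr2:170715087-170715386): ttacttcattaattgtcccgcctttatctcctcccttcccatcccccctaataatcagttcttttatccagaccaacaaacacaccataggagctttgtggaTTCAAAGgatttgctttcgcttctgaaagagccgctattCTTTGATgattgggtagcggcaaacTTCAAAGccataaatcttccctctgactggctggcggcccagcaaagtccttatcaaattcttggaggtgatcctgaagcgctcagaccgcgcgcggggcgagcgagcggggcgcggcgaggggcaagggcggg
TCF7L2 (plus strand, chr10:112949997-112950296): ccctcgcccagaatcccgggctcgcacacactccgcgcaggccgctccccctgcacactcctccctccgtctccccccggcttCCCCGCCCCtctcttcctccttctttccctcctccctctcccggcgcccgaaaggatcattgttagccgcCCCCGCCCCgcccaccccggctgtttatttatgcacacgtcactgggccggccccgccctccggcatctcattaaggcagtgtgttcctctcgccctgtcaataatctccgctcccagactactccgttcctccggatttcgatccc
Capitals mark the TCF and LEF sequences and the GC boxes on either strand. In the DKK1 window the TCF and LEF match began 95 bases before the start of the gene, and in the SP5 window the 3 matches began 148, 109 and 84 bases before it.

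None of the 30 tested WNT genes passed an adjusted p of 0.05 with limma, against 18 of 10780 tested genes (0.167%). At an unadjusted p under 0.05, 6 of the 30 were higher in the knockdown samples (FZD2, LRP5, BCL9, TCF7L1, TCF7L2 and SOX4), against 8.08% of all tested genes, and 1 was lower (LGR4), against 8.14%. The 3 knockdown samples all lay above both controls for 7 of the 30, against 19.1% of all tested genes, and all lay below both for 2 of the 30, AXIN2 and LGR4, against 21%. The median log2 difference of the 30 genes was 0.04, and that of all tested genes was −0.01. The former had no stable sign, at −0.04 without shELK4_1, 0.08 without shELK4_2 and −0.05 with an FPKM of at least 5 required. The count depended on single samples, since 2 WNT genes had an unadjusted p under 0.05 when either control was left out, against 5.42% of all tested genes without pLKO_1 and 5.32% without pLKO_2, and 11 did without shELK4_1, against 18.3%. With the samples left out in turn, 0 to 95 of all tested genes passed an adjusted p of 0.05 with limma. In these bulk samples, less RNA per cell and fewer cells that express a gene cannot be told apart.

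Among the receptors, FZD2 was higher with every hairpin, LRP5 was slightly higher, and LGR4 was lower. FZD2, a Frizzled receptor encoded at chr17:44557484-44561262 in GRCh38, had 2.47 and 2.34 FPKM in pLKO_1 and pLKO_2, and 4.82, 3.98 and 4.21 FPKM in shELK4_1, shELK4_2 and shELK4_3. Every knockdown sample was thus well above both controls, and the mean reached 180% of the control mean. The log2 difference was 0.65 (SE 0.11, adjusted p = 0.0769 from limma), and with a weight for each group, which gives the more uniform controls more weight, FZD2 passed (adjusted p = 0.018 from limma, over a range of 0.018 to 0.872 among the alternatives). LGR4, a receptor for R-spondins that keeps Frizzled proteins at the cell surface, had 5.15 and 4.95 FPKM in the controls, against 4.25, 3.07 and 4.04 FPKM in shELK4_1, shELK4_2 and shELK4_3. The groups did not overlap, shELK4_2 was lowest, and the log2 difference was −0.35 (SE 0.13, adjusted p = 0.275 from limma).

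The co-receptor LRP5 had a narrow spread, with 8.50 and 8.51 FPKM in the controls, against 10, 10.6 and 10.2 FPKM in shELK4_1, shELK4_2 and shELK4_3. Its difference was small, 0.25 on the log2 scale (SE 0.09, adjusted p = 0.246 from limma), but the 3 hairpins differed from each other by only 0.08. FZD7, another Frizzled receptor, also lay above both controls in every knockdown sample, with a log2 difference of 0.24. FZD5 and the co-receptor LRP6 overlapped between the groups, with log2 differences of 0.05 and −0.12. The 3 Dishevelled genes DVL1, DVL2 and DVL3, which relay the signal from the receptors, had log2 differences from −0.08 to 0.04, with overlapping groups.

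Within the destruction complex, none of the 3 genes separated the groups. APC, the scaffold lost in most colorectal tumours, had 4.37 and 4.34 FPKM in the controls, within the 3.79 to 4.68 FPKM of the knockdown samples. AXIN1, the other scaffold, had a log2 difference of 0.10, and GSK3B, the kinase that phosphorylates β-catenin, one of −0.15.

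CTNNB1 had 90.5 and 88.4 FPKM in pLKO_1 and pLKO_2, and 90.2, 69.4 and 88.1 FPKM in shELK4_1, shELK4_2 and shELK4_3. With shELK4_1 and shELK4_3 the level was that of the controls, and with shELK4_2 it was lower, by −0.36 on the log2 scale against the control mean. Over all hairpins the log2 difference was −0.12 (SE 0.13, adjusted p = 0.673 from limma). These are RNA levels, and the protein, whose stability the pathway regulates, was not analysed here.

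The DNA-binding partners TCF7L1 and TCF7L2 and the co-activator BCL9 were higher in every knockdown sample than in both controls. TCF7L1, often a repressor at WNT target genes, had 4.25 and 4.24 FPKM in the controls, against 6.32, 5.17 and 6.86 FPKM in shELK4_1, shELK4_2 and shELK4_3. TCF7L2, the main TCF factor of the intestinal epithelium, had 17.8 and 17.3 FPKM in the controls, against 22.3, 25.9 and 20.5 FPKM in shELK4_1, shELK4_2 and shELK4_3. BCL9, which links β-catenin to Pygopus proteins, had 3.96 and 4.49 FPKM in the controls, against 4.94, 6.27 and 5.63 FPKM in shELK4_1, shELK4_2 and shELK4_3. The hairpin with the highest level was shELK4_3 for TCF7L1 and shELK4_2 for both TCF7L2 and BCL9. The log2 differences were 0.43 (SE 0.12) for TCF7L1, 0.36 (SE 0.12) for TCF7L2 and 0.34 (SE 0.12) for BCL9, with adjusted p of 0.183, 0.218 and 0.249 from limma.

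The paralog BCL9L had a log2 difference of 0.24 with overlapping groups, and 37.5% of its exonic bases are shared with exons of other genes, among them CXCR5 and UPK2, so its reads could be split. TCF7, a TCF factor that is itself a WNT target, had 1.18 and 1.32 FPKM in the controls, against 1.80, 1.01 and 1.38 FPKM in shELK4_1, shELK4_2 and shELK4_3, on both sides of the controls.

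**Figure D2:**
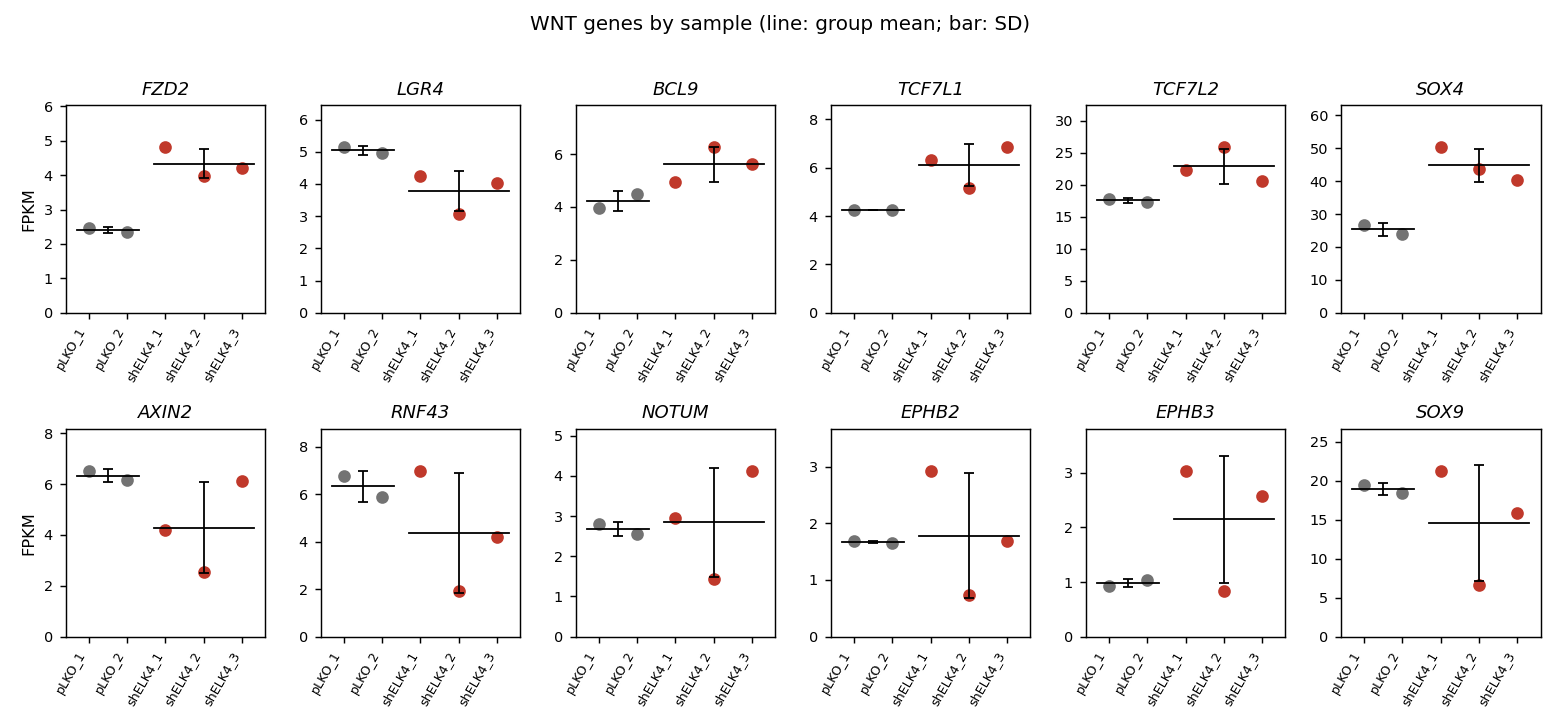
FPKM of 12 WNT genes in each of the 5 samples (grey, pLKO; red, shELK4), with the group mean as a line and the SD as a bar, each vertical axis starting at 0. In the top row the knockdown samples lie on the same side of both controls for every gene; in the bottom row shELK4_2 has the lowest value of the 5 samples for every gene.

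The feedback targets, inhibitors that β-catenin induces, had a median log2 difference of 0.03 from the controls and a median range between hairpins of 0.78. AXIN2, a scaffold of the destruction complex and a widely used readout of pathway activity (chr17:65528563-65561648), had 6.53 and 6.15 FPKM in pLKO_1 and pLKO_2, and 4.20, 2.55 and 6.11 FPKM in shELK4_1, shELK4_2 and shELK4_3. The value with shELK4_3 was that of the controls, the value with shELK4_2 was far lower, and the groups were separated only by the small gap between 6.15 and 6.11 FPKM. The log2 difference was −0.53 (SE 0.27, adjusted p = 0.377 from limma), and it was −0.27 without shELK4_2. Exons of a further annotated gene cover 25.3% of the exonic bases of AXIN2, so its reads could be split.

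RNF43, a ubiquitin ligase that removes Frizzled receptors from the surface (chr17:58353676-58417595), had 6.78 and 5.88 FPKM in the controls, against 6.99, 1.93 and 4.21 FPKM in shELK4_1, shELK4_2 and shELK4_3. Its level with shELK4_1 was above both controls and with the other hairpins below both, so the groups overlapped, and the log2 difference was −0.56 (SE 0.38, adjusted p = 0.492 from limma), less than the spread between hairpins. It became −0.18 without shELK4_2 and −0.91 without shELK4_1. As 69.0% of its exonic bases are shared with TSPOAP1-AS1 and another annotated gene, these values are uncertain. ZNRF3, the paralog of RNF43, had 3.45 and 3.21 FPKM in the controls, against 4.24, 2.72 and 3.76 FPKM in shELK4_1, shELK4_2 and shELK4_3, again with the lowest value in shELK4_2.

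NOTUM, a secreted enzyme that inactivates WNT ligands, had 2.80 and 2.56 FPKM in the controls, against 2.96, 1.44 and 4.13 FPKM in shELK4_1, shELK4_2 and shELK4_3. The hairpins thus lay on both sides of the controls, and the mean log2 difference was 0.00. NKD1, which binds Dishevelled proteins, had a log2 difference of 0.11, with its highest level, 2.02 FPKM, in shELK4_3. DKK1 had 221, 206 and 151 FPKM in shELK4_1, shELK4_2 and shELK4_3, above both controls with shELK4_1 and shELK4_2 and below both with shELK4_3, and exons of PRKG1-AS1 cover 10.2% of its exonic bases.

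Of the stem and progenitor targets, SOX4 was higher with every hairpin, and SOX9, EPHB2 and EPHB3 split by hairpin. SOX4, a transcription factor of progenitor cells encoded at chr6:21593751-21598619, had 26.6 and 24.0 FPKM in pLKO_1 and pLKO_2, and 50.4, 43.6 and 40.4 FPKM in shELK4_1, shELK4_2 and shELK4_3. It was past 1.5-fold in each of the 3 hairpins, and its mean was 177% of the control mean. The log2 difference was 0.79 (SE 0.12, adjusted p = 0.0729 from limma), and with a weight for each group SOX4 passed (adjusted p = 0.0138 from limma, over a range of 0.0138 to 0.776 among the alternatives).

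SOX9, a transcription factor of crypt progenitors and Paneth cells (chr17:72121020-72126416), had 19.5 and 18.4 FPKM in the controls, against 21.3, 6.58 and 15.9 FPKM in shELK4_1, shELK4_2 and shELK4_3. Its level with shELK4_2 was lower by −1.39 on the log2 scale against the control mean, and with shELK4_1 it was above both controls. The mean log2 difference was −0.49 (SE 0.42, adjusted p = 0.598 from limma), and it was −0.04 without shELK4_2. SOX4 and SOX9, neighbours in the order of baseline levels, thus had different patterns across the hairpins, although the difference between them was not tested.

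EPHB2 and EPHB3 are receptor tyrosine kinases that position cells along the crypt. EPHB2 had 1.68 and 1.66 FPKM in the controls, against 2.93, 0.733 and 1.68 FPKM in shELK4_1, shELK4_2 and shELK4_3. EPHB3 had 0.929 and 1.03 FPKM in the controls, against 3.04, 0.830 and 2.57 FPKM in shELK4_1, shELK4_2 and shELK4_3. Both genes were highest with shELK4_1 and lowest with shELK4_2, and EPHB3 was high with shELK4_3 as well. The log2 difference of EPHB3 was 0.59 (SE 0.32, adjusted p = 0.411 from limma) and became 0.94 without shELK4_2, while that of EPHB2 was −0.02 and became 0.28 without shELK4_2. Only 1 control reached 1 FPKM for EPHB3, so it was tested because of its level in shELK4_1 and shELK4_3, and its p values are not evidence of a difference. CD44, an adhesion receptor with WNT-dependent expression, had 33.6 and 35.1 FPKM in the controls, against 42.5, 28.7 and 27.2 FPKM in shELK4_1, shELK4_2 and shELK4_3, on both sides of the controls. PROM1, which encodes the surface marker CD133, stayed between 4.71 and 5.53 FPKM in all 5 samples.

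Counted by hairpin on log2(FPKM + 1), SOX4 was past 1.5-fold with all 3. At a pseudocount of 0.1 in place of 1, FZD2 was too, at 0.97, 0.71 and 0.78 on the log2 scale. On log2(FPKM + 1), at most 2.01% of all tested genes can be past 1.5-fold upward with all 3, the share with shELK4_2. With shELK4_1, 3 of the 30 genes were past 1.5-fold upward (FZD2, SOX4 and EPHB3), against 3% of all tested genes, and 0 downward, against 1.97%. With shELK4_2, 1 gene was past it upward (SOX4), against 2.01%, and 5 downward (AXIN2, RNF43, NOTUM, EPHB2 and SOX9), against 3.89%. With shELK4_3, 3 genes were past it upward (FZD2, SOX4 and EPHB3), against 2.34%, and 0 downward, against 2.47%. EPHB3 was among the 30 because of its knockdown levels; of the 29 genes at 1 FPKM or more in both controls, 2 were past 1.5-fold upward with shELK4_1 and 2 with shELK4_3, against 2.82% and 2.14% of all genes that met this limit. At a pseudocount of 0.1, the counts in either direction were 4 of the 30 with shELK4_1, 8 with shELK4_2 and 6 with shELK4_3, against 7.95%, 9.5% and 8.09% of all tested genes. At a fold of 2 in place of 1.5, the counts in either direction were 1 of the 30 with shELK4_1, 3 with shELK4_2 and 0 with shELK4_3, against 0.928%, 1.17% and 0.798%. The hairpins were compared with the same controls, and each has 1 sample, so these counts have no replicate check.

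**Figure D3:**
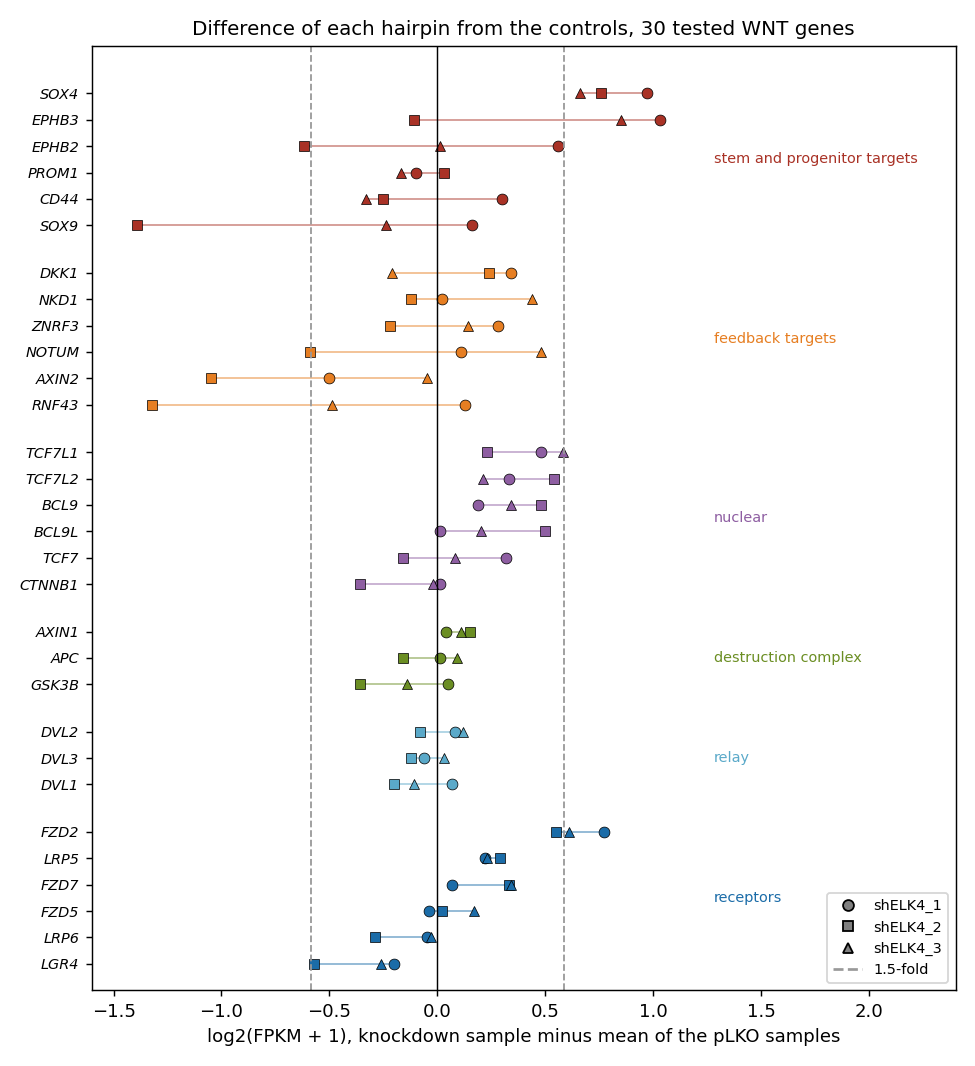
Difference of each knockdown sample from the mean of the 2 pLKO samples on log2(FPKM + 1) for the 30 tested WNT genes, grouped by role; symbols mark the hairpins, a line joins the 3 values of a gene, and dashed lines mark 1.5-fold. SOX4 lies beyond the upper dashed line with all 3 hairpins, and the 5 symbols beyond the lower dashed line all belong to shELK4_2.

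The sample with shELK4_2 had the lowest of the 5 values for 17 of the 30 WNT genes, against 29.5% of all tested genes. For shELK4_1 this count was 1, against 20.6%, and for shELK4_3 it was 3, against 19.3%. The 17 comprised 8 of the 12 tested targets and 9 of the 18 tested components. By group, they were 5 of 6 feedback targets, 3 of 6 stem and progenitor targets, 3 of 3 Dishevelled genes, 2 of 3 destruction complex genes, 2 of 6 receptors and 2 of 6 nuclear genes. The median log2 difference of the 30 genes was 0.09 with shELK4_1, −0.12 with shELK4_2 and 0.10 with shELK4_3, and over all tested genes it was −0.01, −0.02 and 0.01. With an FPKM of at least 5 required, 19 WNT genes were left, and shELK4_2 was lowest for 9 of them, against 31.3% of all genes tested at that limit.

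The range between the highest and the lowest hairpin described this spread. Its median was 0.81 on the log2 scale over the 12 tested targets and 0.27 over the 18 tested components, and over all tested genes it was also 0.27. A range of at least 1, a limit chosen after the values had been seen, was found for 6 of the 30 genes, against 1.99% of all tested genes. These were AXIN2 (at the limit), NOTUM (1.07), EPHB3 (1.14), EPHB2 (1.18), RNF43 (1.45) and SOX9 (1.56), and all 6 are targets. Among the 29 WNT genes at 1 FPKM or more in both controls, without EPHB3, the count was 5, against 1.95% of all genes that met this limit. The count was 3 of 19 with an FPKM of at least 5 required, against 2.1% of all genes tested at that limit. It was 5 of 30 with median-of-ratios scaling or quantile normalization, against 1.93% with each. At a pseudocount of 0.1 it was 6 of 30, against 4.19% of all tested genes. Of the 12 tested targets, SOX4 and PROM1 had the smallest ranges, 0.31 and 0.19. Wide ranges were also found among further pathway genes, described below. Their median range was 0.92 over 2 ligand secretion genes, 0.55 over 12 further targets and 0.54 over 7 WNT ligand genes. It was 0.44 over further receptors and over junction partners, 0.35 over nuclear genes and 0.16 over destruction complex genes. Ranges of at least 1 were found there for WLS and WNT9A (1.39 each), JUN (1.22), CDH1 (1.09) and WNT16 (1.07).

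**Figure D4:**
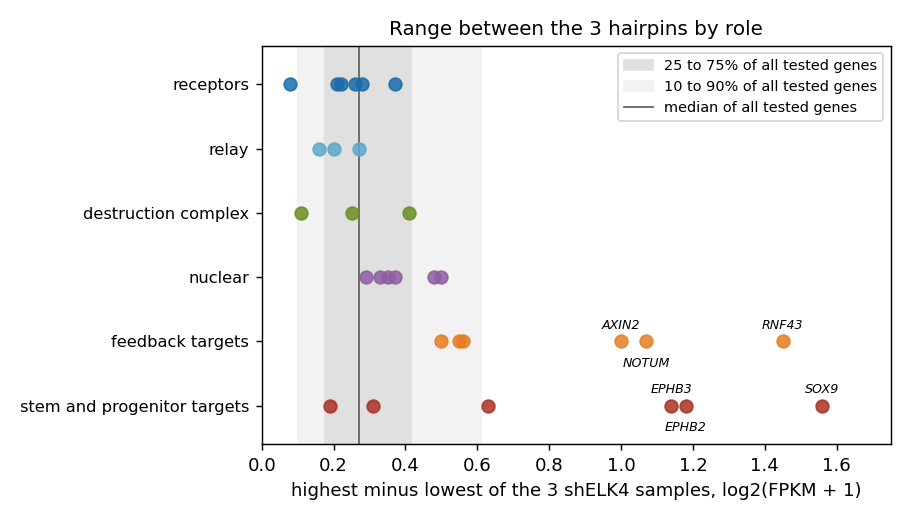
Range between the highest and the lowest of the 3 shELK4 samples on log2(FPKM + 1) for each of the 30 tested WNT genes, by role, over shading that shows where the ranges of all 10780 tested genes lie. The 6 named genes, 3 feedback targets and 3 stem and progenitor targets, lie at 1 or above, beyond the 90% limit of all tested genes at 0.61.

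Beyond the 35 genes, 95 further genes of the pathway were followed in 9 lists, and 54 of them were tested. None passed an adjusted p of 0.05 with limma; at an unadjusted p under 0.05, 1 of the 54 was higher (PPARD), against 8.08% of all tested genes, and 2 were lower (CCND1 and WNT6), against 8.14%. CCND1, which encodes cyclin D1 and is a long-studied β-catenin target, was the most abundant of all, with 370 and 376 FPKM in pLKO_1 and pLKO_2, and 196, 150 and 217 FPKM in shELK4_1, shELK4_2 and shELK4_3. Its mean in the knockdown samples was 50.3% of the control mean, with every hairpin well below both controls. The log2 difference was −1.01 (SE 0.16, adjusted p = 0.0743 from limma). CCND1 passed without shELK4_2 (adjusted p = 0.0295 from limma) and with a weight for each group (adjusted p = 0.00761 from limma). In these settings 95 and 413 genes passed, against 18 in the main fit, and CCND1 passed under no other alternative. Exons of LTO1 cover 10.4% of its exonic bases.

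MYC, another β-catenin target, had 67.8 and 69.5 FPKM in the controls, against 72.1, 90.4 and 59.4 FPKM in shELK4_1, shELK4_2 and shELK4_3. It was highest with shELK4_2, the hairpin with the lowest AXIN2 and RNF43, and lowest with shELK4_3. The mean log2 difference of MYC was 0.09 and became −0.07 without shELK4_2. PPARD, a nuclear receptor, had 6.10 and 6.24 FPKM in the controls, against 8.36, 7.46 and 8.43 FPKM in shELK4_1, shELK4_2 and shELK4_3, a log2 difference of 0.34 (SE 0.10, adjusted p = 0.176 from limma). Of the 16 further targets, 12 were tested, 6 with a higher and 6 with a lower mean, against 48.2% and 51.8% of all tested genes.

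Of 19 WNT ligand genes, 7 were tested, and 5 of these had a lower mean in the knockdown samples, as did 51.8% of all tested genes. WNT16 was the most abundant, with 29.6 and 27.4 FPKM in the controls, against 41.7, 19.3 and 20.5 FPKM in shELK4_1, shELK4_2 and shELK4_3. It was above the controls with shELK4_1 and below them with the other hairpins. WNT6 had 1.69 and 1.46 FPKM in the controls, against 1.11, 0.461 and 1.12 FPKM in shELK4_1, shELK4_2 and shELK4_3, with a log2 difference of −0.46 (SE 0.18, adjusted p = 0.289 from limma). All 3 hairpins were below both controls, again with shELK4_2 lowest, and the difference was −0.28 without that sample and −0.83 at a pseudocount of 0.1. For ligand secretion, WLS, the carrier that brings WNT proteins to the surface, was the more abundant of 2 genes, with 11 and 10.2 FPKM in the controls, against 16.3, 5.57 and 11.2 FPKM in shELK4_1, shELK4_2 and shELK4_3. None of the 4 R-spondin genes reached 1 FPKM in any sample, and none of the 13 WNT antagonists followed beside DKK1 did. RSPO4 was the most abundant of the R-spondin genes and FRZB of the 13 antagonists, and 7 of the 13 were listed at 0 throughout. DKK1 thus had by far the highest level of the secreted antagonists followed.

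Among 12 further receptors, 7 were tested, led by PTK7, a pseudokinase co-receptor, with 29.0 and 28.4 FPKM in the controls. Of 12 further genes of the destruction complex and its regulators, 11 were tested, led by the phosphatase subunit PPP2CA at 74.5 and 74.9 FPKM in the controls. Their median range between hairpins was 0.16, against 0.42 over all 54 further genes tested and 0.27 over all tested genes. For 4 of these 11 the knockdown samples all lay below both controls, against 21% of all tested genes, and for 1 above, against 19.1%. Of 13 further nuclear genes, 11 were tested, led by the co-repressor TLE5, listed under its older symbol AES, at 61.2 and 66.0 FPKM in the controls, and 8 of the 11 had a higher mean in the knockdown samples, as did 48.2% of all tested genes.

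At cell junctions β-catenin binds cadherins, and 4 junction partners were tested. JUP, the close relative of β-catenin also called γ-catenin, was the most abundant, with 58.6 and 62.3 FPKM in the controls, against 61.2, 44.5 and 44.8 FPKM in shELK4_1, shELK4_2 and shELK4_3. CDH1, the gene of E-cadherin, had 20.5 and 20.3 FPKM in the controls, against 23.1, 10.3 and 14.7 FPKM in shELK4_1, shELK4_2 and shELK4_3. Both were lower with shELK4_2 and shELK4_3 and not with shELK4_1. The other 2 were not lower with shELK4_2, where CTNND1 was at 0.32 and CTNNA1 at 0.07 on the log2 scale. With shELK4_3 they lay slightly below both controls, at −0.11 and −0.06, and with shELK4_1 they were at 0.18 and −0.16. The log2 difference of CDH1 was −0.40 (SE 0.29, adjusted p = 0.523 from limma), with −0.14 when shELK4_2 was left out and −0.68 when shELK4_1 was.

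**Figure D5:**
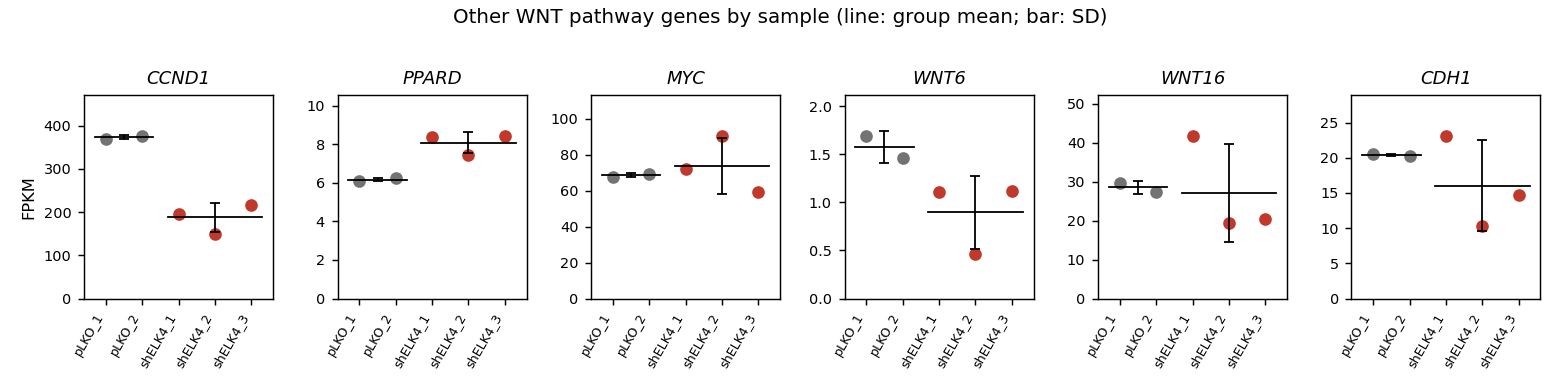
FPKM of 6 further WNT pathway genes in each of the 5 samples (grey, pLKO; red, shELK4), with the group mean as a line and the SD as a bar, each vertical axis starting at 0. The knockdown samples of CCND1 lie at 150 to 217 FPKM, below both controls at 370 and 376 FPKM, while MYC, WNT16 and CDH1 lie on both sides of their controls.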

How the data were processed

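The authors deposited FPKM values per gene. The submitters' processing notes name Trimmomatic 0.36, HISAT2 2.0.5, Cufflinks 2.2.1 and HTSeq 0.9.1; the genome build, annotation and strand setting are not given in the sources used here. Sums of FPKM over genes were 309139 to 319870 a sample. Genes that reached an FPKM of 1 in 2 or more samples (10780) entered a test on log2(FPKM + 1), which understates differences of low genes, with limma 3.58.1 in R 4.3.3 (a single term for condition, empirical Bayes with a trend, Benjamini-Hochberg adjustment over all tested genes), tested on simulated data. Each knockdown sample was also set against the control mean. GENCODE v44 on GRCh38 gave positions and 3′ UTRs, RefSeq the promoters, and the study's supplement the hairpins. Members and lists were chosen with earlier results of these data known. Full values are given for ELK4, CTNNB1, members with separate groups and a log2 difference of at least 0.25, and members past 1.5-fold with any hairpin; outside them, for list genes at an unadjusted p under 0.05, the most abundant of each list, MYC, CCND1 and CDH1. A few other members with all values were chosen after these had been seen. Alternatives were a pseudocount of 0.1, every gene above 0, an FPKM of 5, a weight for each group, quantile normalization, median-of-ratios scaling, a replicate block, each sample left out, and a fold of 2. Tables and figures used Python 3.11.15.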

Additional observations from a re-analysis of the deposited data

How the results depend on the processing

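Of 18 genes with an adjusted p under 0.05 from limma, the count became 0 with every gene above 0 tested, 32 at an FPKM of at least 5, 413 with a weight for each group and 0 to 95 with each sample left out; without a control, the lone control was assumed to vary like the knockdown samples. The 0 WNT genes became 2 with the weight and 0 to 1 with samples left out (EPHB3 without shELK4_2, a gene that reached 1 FPKM in only 1 control and so was tested because of its knockdown level), and the 7 at an unadjusted p under 0.05 became 2 to 11, with 5.32% to 23.2% of all tested genes. ELK4 lost its call with every gene above 0 tested (−1.26, adjusted p = 0.114 from limma) and ranged from −1.34 to −1.18 with samples left out. The WNT genes past 1.5-fold became 1, 4 and 1 of 19 with shELK4_1, shELK4_2 and shELK4_3 at an FPKM of at least 5. The shares of all genes tested at that limit were 4.93%, 6.36% and 5%. At a pseudocount of 0.1 they were 4, 8 and 6 of 30, against 7.95%, 9.5% and 8.09% of all tested genes. At a fold of 2 they were 1, 3 and 0 of 30, against 0.928%, 1.17% and 0.798%. With a control left out, which was added after seeing the data, shELK4_1 had 3, shELK4_2 had 5 to 7 and shELK4_3 had 2 to 3. The shares of all tested genes were not computed for this setting, so nothing is read from these counts. The genes lowest in shELK4_2 became 9 of 19, and those with a hairpin range of at least 1 became 3 of 19, at an FPKM of at least 5, also added after seeing the data. With both controls at 1 FPKM or more, added likewise, 2, 6 and 2 of 29 were past 1.5-fold with shELK4_1, shELK4_2 and shELK4_3. The shares of all genes that met this limit were 4.82%, 5.9% and 4.66%. Of the 29, 16 were lowest in shELK4_2, against 29.9%, and 5 had this range, against 1.95%. The median WNT difference of 0.04 changed sign (−0.05 at an FPKM of at least 5, −0.04 to 0.08 with samples left out). Differences changed sign for NOTUM (0.00 with median-of-ratios scaling, −0.24 to 0.29 with samples left out), EPHB2 (−0.31 to 0.28) and MYC (−0.07 to 0.23). Beyond fewer genes or samples, the cause was not tested.

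With the replicate number as a block (replicate block), 22 genes and 0 WNT genes passed. The numbers were not treated as pairs, since knockdown numbers name hairpins. Deviations of same-numbered samples correlated at 0.0776 and 0.0225 across genes, over 2 pairs. With 2 controls, the deviations of pLKO_1 mirror those of pLKO_2, so these correlations cannot decide whether samples were paired.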

Other observations

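Among the further pathway genes, WNT9A and JUN were singled out after their values had been seen, since their hairpins lay far apart. WNT9A, a WNT ligand gene, had 3.93 and 3.72 FPKM in pLKO_1 and pLKO_2, and 8.80, 3.23 and 2.75 FPKM in shELK4_1, shELK4_2 and shELK4_3. It was high with shELK4_1 and below both controls with the other hairpins. JUN, a subunit of the AP-1 transcription factor, had 23.2 and 25.7 FPKM in the controls, against 8.84, 22.0 and 14.4 FPKM in shELK4_1, shELK4_2 and shELK4_3. All 3 hairpins lay below both controls, with shELK4_1 lowest, and the log2 difference was −0.75 (adjusted p = 0.319 from limma).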
